A study of Macaca mulatta with 24 samples.

Results

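The jejunum of rhesus macaques sampled 4 days after total-body irradiation (TBI) of 6.7 Gy was compared with that of unirradiated animals, on 4 arrays of each group. Members of this comparison were chosen by the group named in the sample titles and not by any measured value, which gave 8 of the 24 jejunum arrays of the series. The irradiated animals received 1 cobalt-60 gamma exposure. Controls received none and carry the day 4 label. All were young adult males, each array held RNA of 1 animal without pooling, and the RNA came from a piece of the whole bowel wall, so epithelium, lamina propria, vessels, nerves and muscle are read together. The other groups compared below are the 4 arrays from day 4 after 7.4-Gy TBI and the 4 from day 7 after 6.7-Gy TBI. All 24 arrays entered the filter on probes, the choice of the brightest probe and the model for dose and day. The purpose of the study was to describe how the segments of the gut respond to radiation over time and dose.

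The lining of the small bowel is renewed from stem cells at the base of the crypts, whose daughters divide, move up the villus as enterocytes and are shed within days. Ionizing radiation breaks DNA in dividing crypt cells, and the transcription factor p53 then switches on genes for cell cycle arrest, repair and cell death. When fewer new cells reach the villus, genes of mature enterocytes (digestive enzymes, nutrient transporters, detoxifying enzymes) can fall in the tissue, while damaged mucosa draws in immune cells through chemokines and remodels its matrix.

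Each level below is the log2 of a probe's background-subtracted signal minus the 75th percentile of all probes on that array, so a level of 0 marks a probe as bright as that percentile. Levels of different probes are not comparable with each other. Differences between the groups are log2 changes with their standard error (SE), n = 4 against 4, tested with limma, and a probe was called (written as up-regulated or down-regulated) at a Benjamini-Hochberg adjusted p under 0.05 and a change of at least 2-fold, the limits used in the study. Replicate numbers name the animals only.

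The tissue read as small bowel wall on all 8 arrays. FABP1, the fatty acid carrier of enterocytes, lay between 5.77 and 7.92, LCT, the lactase of the small bowel brush border, between 3.74 and 5.57, and DES, the intermediate filament of muscle, between 7.04 and 7.63. The arrays differed in sensitivity: between 21648 and 38226 of 43603 probes were well above background, with the fewest on irradiated array 1 and control array 4, and the lowest level that counted as measured was -2.98 and -3.33 on these 2 arrays, against -4.72 on irradiated array 2 and -6.95 to -6.32 on the others. All controls were scanned on the first day, on slides 1 to 4. Irradiated arrays 3 and 4 shared slides 1 and 2 with controls 1 and 2, while irradiated arrays 1 and 2 lay on slides 5 and 6, scanned on the second day, so the groups were not balanced over slide or scan day. Within slides 1 and 2, irradiated array 3 minus control 1 and irradiated array 4 minus control 2 compare animals of the same slide and scan day. These differences are given beside some of the results only, and for some genes the 2 slides differed widely. The controls lay at position 1 of their slides and irradiated arrays 3 and 4 at position 2, so within these slides position and group cannot be told apart.

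Of 28171 probes tested, 559 (1.98%) were called, 353 up-regulated and 206 down-regulated. The called probes carried 309 gene symbols, 192 of them up-regulated and 117 down-regulated. A change of 4-fold or more was seen in 100 called probes, 70 up-regulated and 30 down-regulated. With the brightest probe standing for each gene, 270 of 11881 genes (2.27%) were called, 167 (1.41%) up-regulated and 103 (0.867%) down-regulated, and the median change over all these genes was -0.04. The groups did not overlap in 558 of the 559 called probes, while 14.3% of all tested probes did not overlap. The count depended on the arrays used: 171 of the called probes stayed called whichever array was left out, and 228 without control 2. The total was 614 without irradiated array 1, 467 without control 4 and 235 to 311 without any 1 of the others. Most fits with 1 array fewer thus passed fewer probes, so a call lost this way need not rest on the animal left out. Without the 2 arrays that detected the fewest probes, 360 stayed called, and on the arrays of the first scan day alone, 156. Other settings gave fewer calls in all: 5 with slide as a fixed block, 85 with array position as a block, 101 without the filter on dim probes and 155 by the methods' t-test. Some gave more: 800 with slide as a random block and 635 with limma's trend and robust options. With slide as a fixed block only the pairs on slides 1 and 2 compare the groups, so few arrays carry that fit.

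Among 34 gene lists, the p53 targets, metallothioneins, chemokines, matrix and complement genes held most of the up-regulated members, and the down-regulated members were spread over lists of enterocyte function and those of enteroendocrine, plasma and erythroid cells. Of 763 listed genes 477 were tested, 209 had no probe and 77 were below the detection filter. In all, 54 listed genes were called. Counts of members at an unadjusted p under 0.05, given below for some lists, are a description only. The share of all genes at that limit is not given, and the 2.27% called is no measure of it. In the plot of the lists below, the called members sit on the right for the first set of lists, except the zinc importer SLC39A4, and on the left for most absorptive lists.

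**Figure D1:**
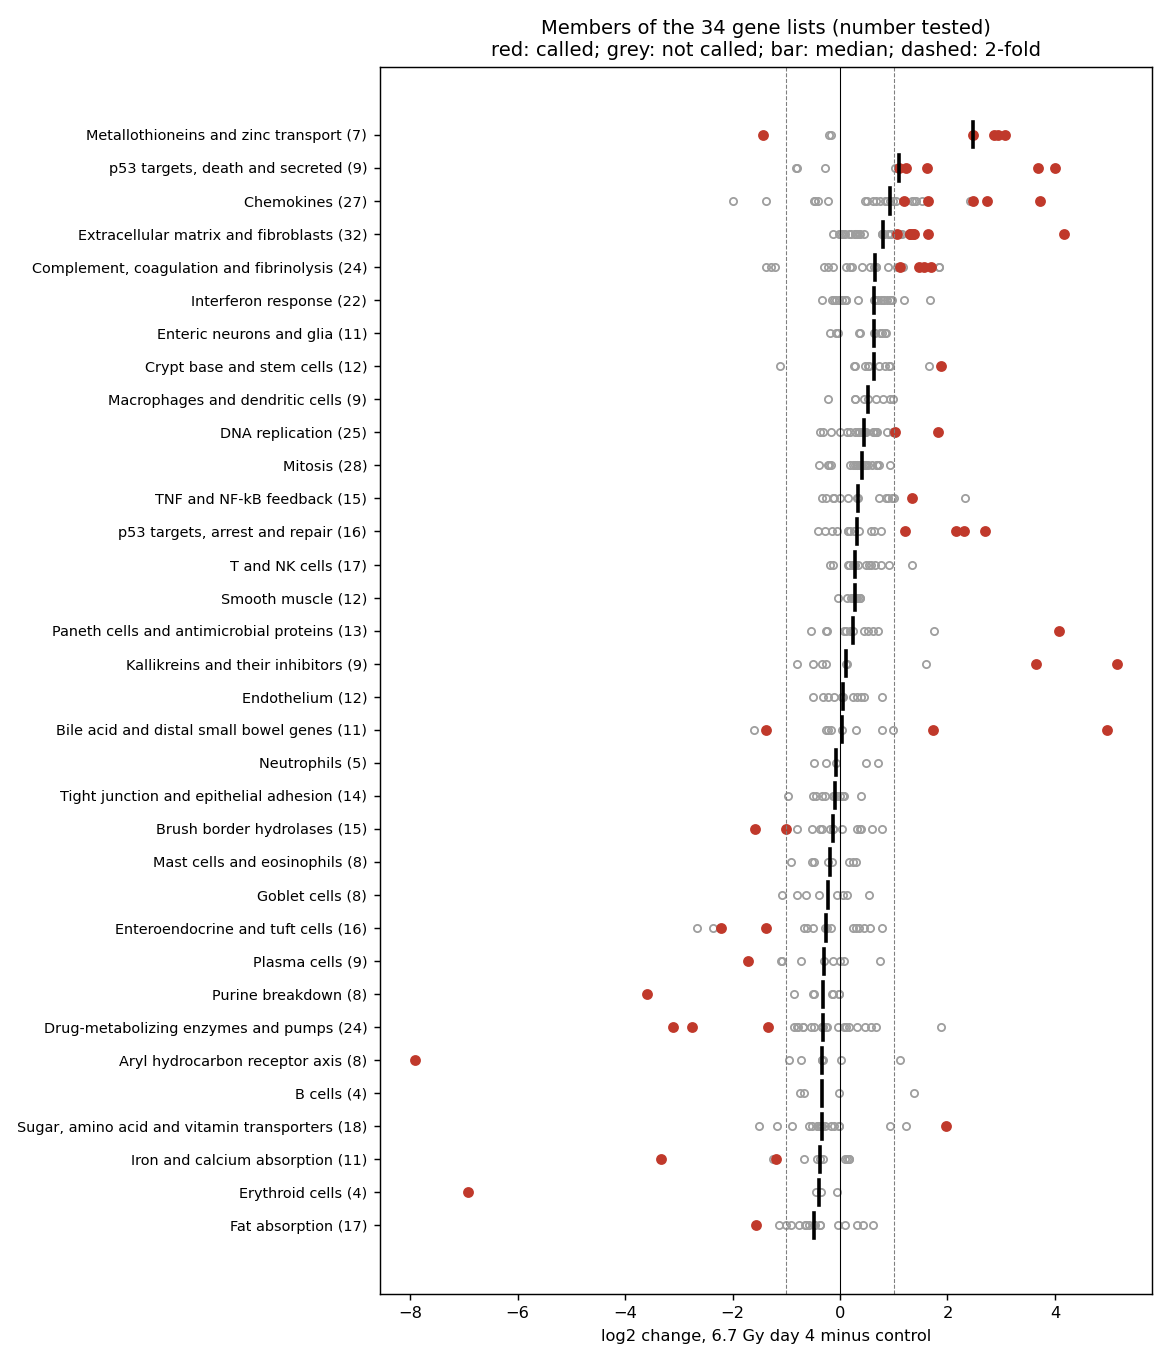
Log2 change from control 4 days after 6.7-Gy TBI (x axis) for the tested members of 34 gene lists (y axis, number tested in brackets). Each point is 1 gene, red where called and grey where not, the black bar is the list's median, and dashed lines mark 2-fold. The median runs from 2.47 for metallothioneins and zinc transport to -0.49 for fat absorption, and most lists hold few called genes or none.

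Several p53 targets were up-regulated, and most of the tested arrest and repair genes were not called. In the list of p53 targets for arrest and repair, 4 of 16 tested genes were up-regulated (CDKN1A, DDB2, PLK2 and ZMAT3) and the median change was 0.31. In the list for death and secreted products, 5 of 9 were up-regulated (GDF15, EDA2R, FAS, BAX and TNFRSF10A) and the median was 1.09. No member of either list was down-regulated. These shares compare with 1.41% of all genes.

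GDF15, a secreted stress cytokine, lay at 0.44, -0.49, 0.37 and 0.59 on control arrays 1 to 4 and at 4.01, 4.47, 4.31 and 4.15 on irradiated arrays 1 to 4. The groups were far apart, and the irradiated animals differed less among themselves than the controls did. The change was 4.00 ± 0.24 (SE), or 16.0-fold (limma adjusted p = 0.000721), and it was 3.87 within slide 1 and 4.63 within slide 2. EDA2R, a receptor of the TNF receptor family that binds ectodysplasin A2, lay at -3.02, -2.84, -2.51 and -3.04 in controls and at 0.77, 0.98, 1.14 and 0.44 after irradiation. Again no irradiated array came near a control. Its change was 3.68 ± 0.19, or 12.9-fold, with the smallest adjusted p among the named genes (limma, 0.00045).

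DDB2, which recognizes ultraviolet-type lesions for nucleotide excision repair, lay at 1.28, 1.21, 1.50 and 1.61 in controls and at 4.35, 4.27, 4.16 and 3.64 in irradiated animals. All irradiated arrays stood more than 2 log2 units above the highest control. The change was 2.71 ± 0.19, or 6.53-fold (limma adjusted p = 0.00123). CDKN1A, which encodes the cyclin-dependent kinase inhibitor p21, had levels of 3.28, 3.22, 2.91 and 3.37 against 4.57, 4.57, 4.50 and 3.98, with irradiated array 4 the lowest of its group but still above every control. Its change was smaller, 1.21 ± 0.18 (limma adjusted p = 0.0148).

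PLK2, a kinase that p53 induces, rose from -1.84, -1.74, -1.72 and -2.42 to 0.22, -0.09, 0.63 and 0.17. Its change was 2.16 ± 0.21 (limma adjusted p = 0.0033). ZMAT3, an RNA-binding zinc finger protein, went from -4.68, -4.30, -4.54 and -5.17 to -2.38, -2.19, -2.26 and -2.65. The irradiated arrays were tightly grouped, and all lay above the controls. Its change was 2.30 ± 0.20 (limma adjusted p = 0.00233). Control 4 did not measure this probe above background, and once every array was held to the least sensitive array's floor of -2.98, the change was 0.61 and the call was lost.

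Among the death genes, FAS, a death receptor, lay at -2.41, -1.72, -1.71 and -2.54 in controls and at -0.38, -0.82, -0.12 and -0.57 after irradiation, a change of 1.63 ± 0.24 (limma adjusted p = 0.0152). BAX, which opens the outer mitochondrial membrane, lay at 1.60, 1.13, 1.43 and 1.37 against 2.80, 2.54, 2.69 and 2.41, a change of 1.22 ± 0.15 (limma adjusted p = 0.00862). Neither gene's groups overlapped, and all 3 BAX probes were called. TNFRSF10A, another death receptor, changed by 1.09 ± 0.24 (limma adjusted p = 0.0449) and lost its call whichever array was left out, with changes of 0.92 to 1.22. MDM2, the ubiquitin ligase that restrains p53, depended on the probe: the brighter one changed by -0.06 (limma adjusted p = 0.872) and the other by 2.03 (limma adjusted p = 0.00142), although control arrays measured the latter above background in only 3 of 4 cases. Which transcripts these probes read was not tested.

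**Figure D2:**
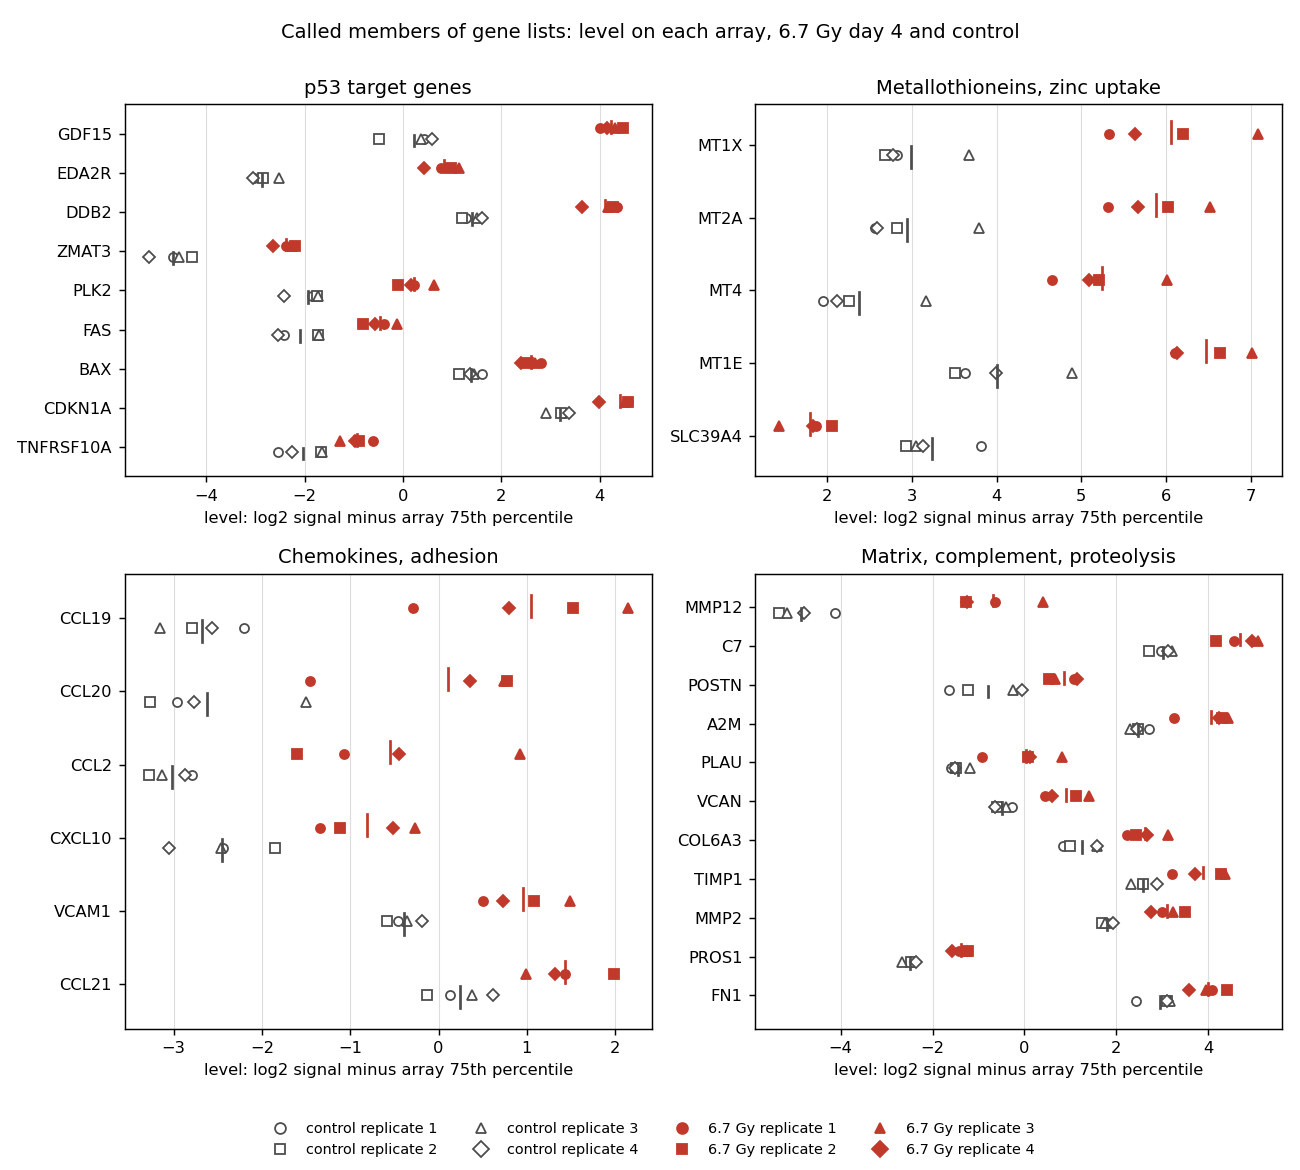
Level on each array (log2 signal relative to that array's 75th percentile, x axis) of the called members of 4 groups of gene lists, with controls as open grey and irradiated animals as filled red symbols, 1 symbol shape per replicate number, and a bar at each group mean. The p53 targets are tightly grouped by treatment, with GDF15 between -0.49 and 0.59 in controls and between 4.01 and 4.47 after 6.7 Gy, while chemokines such as CCL2 spread over a wider range in irradiated animals.

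Metallothioneins, small cysteine-rich proteins that bind zinc and copper and are induced by zinc and by glucocorticoids, were the list with the highest median change, 2.47. Of its 7 tested genes, 4 metallothioneins were up-regulated (MT1E, MT1X, MT2A and MT4), and 1 gene, the zinc importer SLC39A4, was down-regulated, against 1.41% and 0.867% of all genes. MT1X lay at 2.82, 2.69, 3.67 and 2.78 in controls and at 5.32, 6.20, 7.09 and 5.63 after irradiation. Control 3 was the highest control, irradiated array 3 the highest irradiated array, and the groups did not overlap. The change was 3.07 ± 0.39, or 8.39-fold (limma adjusted p = 0.00862), and it was 4.27 within slide 1 and 2.94 within slide 2.

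The brighter MT2A probe lay at 2.57, 2.82, 3.79 and 2.59 in controls and at 5.31, 6.02, 6.52 and 5.67 after irradiation, a change of 2.94 ± 0.34 (limma adjusted p = 0.00595). A second MT2A probe gave 1.93, 1.89, 2.39 and 2.14 against 4.82, 6.16, 6.81 and 5.24, a change of 3.67 ± 0.40 (limma adjusted p = 0.00481). Both probes showed the same order of animals among the irradiated arrays. The probe for MT4, a metallothionein known from stratified epithelium, changed by 2.87 ± 0.34 (limma adjusted p = 0.00732), and the 2 MT1E probes changed by 2.94 and 2.47. These genes are close copies of each other, and how far a probe also reads its relatives was not tested. MT3, the brain form, changed by -0.16 (limma adjusted p = 0.645). SLC39A4, which takes zinc up at the apical membrane of enterocytes, lay at 3.81, 2.93, 3.05 and 3.14 in controls and at 1.86, 2.06, 1.43 and 1.84 after irradiation. The zinc importer thus lay lower on every irradiated array, with a change of -1.43 ± 0.22 (limma adjusted p = 0.0165). All the calls in this list held with each array left out.

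CYP1A1 had the largest change among all called probes. It encodes the cytochrome P450 that oxidizes aromatic hydrocarbons and is the classic target of the aryl hydrocarbon receptor, which senses dietary and microbial ligands in the gut. Its brighter probe lay at 6.04, 5.66, 3.54 and 6.53 in controls and at -1.69, -1.91, -3.22 and -3.05 in irradiated animals. The lowest control, number 3, still stood far above every irradiated array. The change was -7.91 ± 0.64, or 240-fold lower (limma adjusted p = 0.00142), and within slides 1 and 2 it was -9.26 and -8.71. A second CYP1A1 probe was well above background on all 4 controls and on no irradiated array, which makes it at least 75.6-fold lower, a bound set by the lowest signal each irradiated array could measure (limma adjusted p = 0.00481).

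CYP1A1 was the only called gene of the 8 tested on the aryl hydrocarbon receptor axis, against 0.867% of all genes down-regulated, and the list's median change was -0.33. The receptor gene itself, AHR, changed by -0.33 (limma adjusted p = 0.515), CYP1B1, a related cytochrome, by 1.12 (limma adjusted p = 0.0832), and NQO1, a quinone reductase, by -0.73 (limma adjusted p = 0.245). None of these passed the test.

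Among drug-metabolizing enzymes and pumps, 3 of 24 tested genes were down-regulated and none was up-regulated, with a median change of -0.32 and 0.867% of all genes down-regulated. GSTA1, a glutathione transferase of enterocytes and hepatocytes, lay at 6.81, 6.32, 6.83 and 6.30 in controls and at 4.09, 4.27, 3.81 and 3.07 after irradiation. No animal bridged the gap between the groups, and the change was -2.75 ± 0.27, or 6.74-fold lower (limma adjusted p = 0.0033). Its second probe changed by -1.98 (limma adjusted p = 0.00353). CYP2D6, a cytochrome that oxidizes many drugs, had levels of 3.09, 2.64, 1.51 and 1.77 against -1.25, 0.58, -1.12 and -1.61. Irradiated array 2 was the closest to the controls. The change was -3.10 ± 0.51 (limma adjusted p = 0.019), and the call was lost without control 1, control 2, irradiated array 3 or irradiated array 4, with changes of -3.58 to -2.82 over all arrays left out. SULT2A1, which sulfates steroids and bile acids, changed by -1.33 ± 0.26 (limma adjusted p = 0.0295) and kept its call only without control 3 or irradiated array 1. CYP3A4, the main drug-oxidizing cytochrome of enterocytes, changed by -0.85 (limma adjusted p = 0.113) and was not called.

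In iron and calcium absorption 2 of 11 tested genes were down-regulated, against 0.867% of all genes. S100G, the calcium-binding protein that carries calcium across the enterocyte and is induced by vitamin D, lay at 9.07, 7.85, 8.23 and 9.22 in controls and at 4.93, 6.02, 5.48 and 4.62 after irradiation. Every irradiated array was well below the lowest control. The change was -3.33 ± 0.39, or 10.1-fold lower (limma adjusted p = 0.00653), with -3.58 within slide 1 and -3.23 within slide 2. HMOX1, which breaks down heme, lay at 4.73, 3.95, 4.63 and 4.77 against 3.34, 3.71, 2.89 and 3.37. Control and irradiated array lay at 4.73 and 2.89 within slide 1 and at 3.95 and 3.37 within slide 2. Control 2 and irradiated array 2 were near each other, the change was -1.19 ± 0.24 (limma adjusted p = 0.0321), and the call held only without control 2, with changes of -1.38 to -1.05 over the arrays left out. The vitamin D receptor gene VDR changed by -0.31 and was not called.

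ADA, adenosine deaminase, which is very abundant in the upper small bowel and degrades adenosine, was the 1 called gene of 8 in purine breakdown, against 0.867% of all genes down-regulated. It lay at 6.44, 3.66, 3.99 and 5.51 in controls and at 1.00, 1.22, 1.45 and 1.58 in irradiated animals. Controls varied widely and irradiated animals hardly at all, with no overlap. Control and irradiated array lay at 6.44 and 1.45 within slide 1 and at 3.66 and 1.58 within slide 2, so the size of the ADA difference varied. The change was -3.59 ± 0.56, or 12.0-fold lower (limma adjusted p = 0.0165). The call was lost without irradiated array 2, and the change ran from -4.00 to -3.08 over the arrays left out. APRT, which salvages adenine, lay at 3.18, 3.06, 3.11 and 3.59 against 2.52, 2.23, 2.34 and 2.44, a change of -0.85 under the 2-fold limit (limma adjusted p = 0.0263). All 8 members of this list had changes below 0, except 1 under quantile normalization, 1 with another background correction (normexp) and 2 with the percentile taken over detected probes.

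Single genes of the absorptive apparatus were called, where 0.867% of all genes were down-regulated and 1.41% up-regulated. In fat absorption 1 of 17 tested genes was down-regulated, with a median change of -0.49. FABP1 lay at 7.76, 7.92, 7.62 and 7.77 in controls and at 6.08, 5.77, 6.46 and 6.50 after irradiation. The controls were nearly identical and all irradiated arrays lay lower, with a change of -1.56 ± 0.19 (limma adjusted p = 0.00754). Of 15 brush border genes, TREH and VIL1 were down-regulated, and the list's median was -0.13 (0.17 within slide 1 and -0.48 within slide 2). VIL1, villin, which bundles the actin of microvilli, lay at 3.58, 4.35, 3.82 and 4.31 against 3.10, 1.85, 1.92 and 2.88, a change of -1.58 ± 0.33 (limma adjusted p = 0.0358). Its call held only without irradiated array 1, and its changes ran from -1.80 to -1.38. TREH, which splits trehalose, changed by -1.00 ± 0.19 (limma adjusted p = 0.0285) and kept its call only without control 4 or irradiated array 1.

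LCT, in contrast, lay at 4.20, 4.26, 4.15 and 3.74 in controls and at 4.24, 3.99, 5.57 and 4.90 after irradiation, so the groups overlapped (change 0.59, limma adjusted p = 0.337). Of 18 sugar, amino acid and vitamin transporters 1 was called, SLC6A20, and it was up-regulated, against 1.41% of all genes, while the list's median was -0.34. SLC5A1, the sodium-glucose carrier, changed by -0.37 (limma adjusted p = 0.438). The general epithelial marker EPCAM lay between 5.14 and 5.48 in controls and between 4.93 and 5.50 after irradiation, a change of -0.10 (limma adjusted p = 0.768). None of the 14 tight junction and adhesion genes was called in limma (3 at an unadjusted p under 0.05). With 2.27% of all genes called, a list this short could hold none, so the count says little about its members. The list's mean level lay between 2.71 and 2.89 in controls and between 2.44 and 2.79 in irradiated animals. In a bulk sample, fewer cells of a type and less RNA per cell cannot be told apart.

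**Figure D3:**
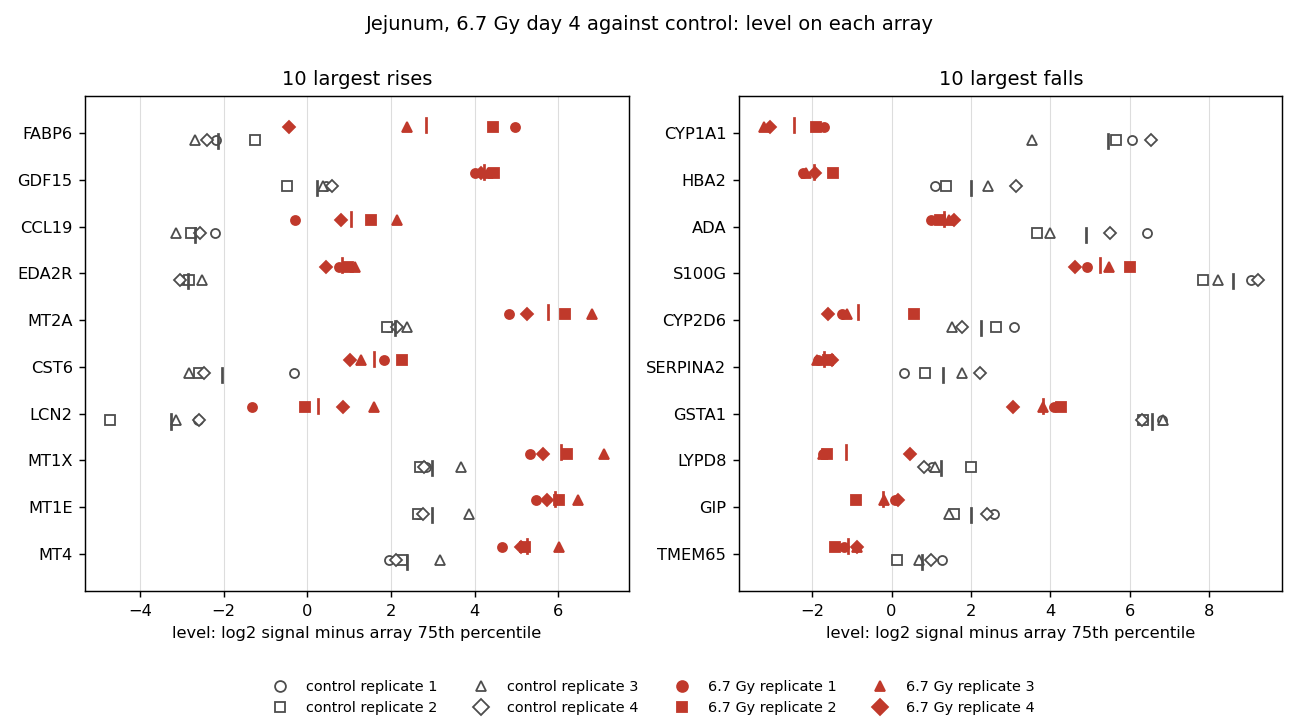
Level on each array (log2 signal relative to that array's 75th percentile, x axis) for the 10 largest rises and the 10 largest falls among called probes measured on all 8 arrays, with controls open grey, irradiated animals filled red, 1 symbol shape per replicate number and bars at group means. CYP1A1 shows the widest separation, from 3.54 or more in controls to -1.69 or less after 6.7 Gy, and FABP6 the widest spread among irradiated animals, from -0.44 to 4.97.

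Genes that mark position along the small bowel went in different directions. FABP6, the bile acid carrier of the ileum, lay at -2.19, -1.25, -2.70 and -2.40 in controls and at 4.97, 4.44, 2.38 and -0.44 in irradiated animals. The 4 irradiated animals were spread over more than 5 log2 units, and irradiated array 4 stood close to the controls. The change was 4.97 ± 1.04, or 31.4-fold (limma adjusted p = 0.0381). It was 4.57 within slide 1 and 0.81 within slide 2, and the call held only without irradiated array 4, with changes of 4.26 to 6.07 over the arrays left out. SLC10A2, the bile acid importer of the ileum, lay at -5.50, -4.77, -5.45 and -5.27 against -2.86, -3.30, -3.22 and -4.67. The same irradiated animal was the lowest. Its change was 1.73 ± 0.37 (limma adjusted p = 0.0408), only 3 arrays of each group measured it above background, and at the common floor the change was 0.03.

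SLC6A20, the imino acid carrier, lay at -5.06, -4.31, -4.46 and -4.91 in controls and at -2.34, -3.19, -1.74 and -3.61 after irradiation, a change of 1.96 ± 0.39 (limma adjusted p = 0.0324) that fell to 0.47 at the common floor. For both carriers the call held only without irradiated array 4. CUBN, the ileal receptor for vitamin B12 bound to intrinsic factor, changed by 0.98 (limma adjusted p = 0.142). FGF19, the hormone the ileum releases in response to bile acids, changed by 0.04. In all, 2 of the 11 genes of bile acid handling and the distal small bowel were up-regulated and 1 was down-regulated, against 1.41% and 0.867% of all genes, and none of the 3 was called at the common floor.

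Hormone genes of the enteroendocrine cells were lower where they were called. GIP, the incretin of the upper small bowel, lay at 2.59, 1.56, 1.44 and 2.40 in controls and at 0.08, -0.90, -0.19 and 0.16 after irradiation. The groups were separated by more than 1 log2 unit, and the change was -2.21 ± 0.33, or 4.63-fold lower (limma adjusted p = 0.0147). PYY, the satiety peptide of the distal bowel, lay at -2.24, -1.36, -2.44 and -2.02 against -3.61, -3.60, -2.81 and -3.53. Its change was -1.37 ± 0.27 (limma adjusted p = 0.0326), and the call held only without irradiated array 3, with changes of -1.57 to -1.15.

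MLN, motilin, lay at 2.60, 1.01, 0.54 and 2.25 in controls and at -0.81, -1.64, -1.52 and 0.91 after irradiation. GHRL, ghrelin, lay at -0.41, -1.17, -1.85 and -1.04 against -4.62, -5.35, -2.69 and -2.44. MLN overlapped through irradiated array 4 and GHRL did not overlap, and their changes of -2.37 and -2.66 missed the threshold (limma adjusted p = 0.0787 and 0.0601). The GHRL probe was above background on only 2 irradiated arrays, so its 2 lowest levels are below what those arrays could measure, and at the common floor its change was -1.65 and passed (limma adjusted p = 0.0442). The pan-endocrine marker CHGA changed by 0.35 (limma adjusted p = 0.467), and NTS, neurotensin, by 0.78 (limma adjusted p = 0.428). Of the 16 genes of enteroendocrine and tuft cells, GIP and PYY were the called ones, against 0.867% of all genes down-regulated.

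**Figure D4:**
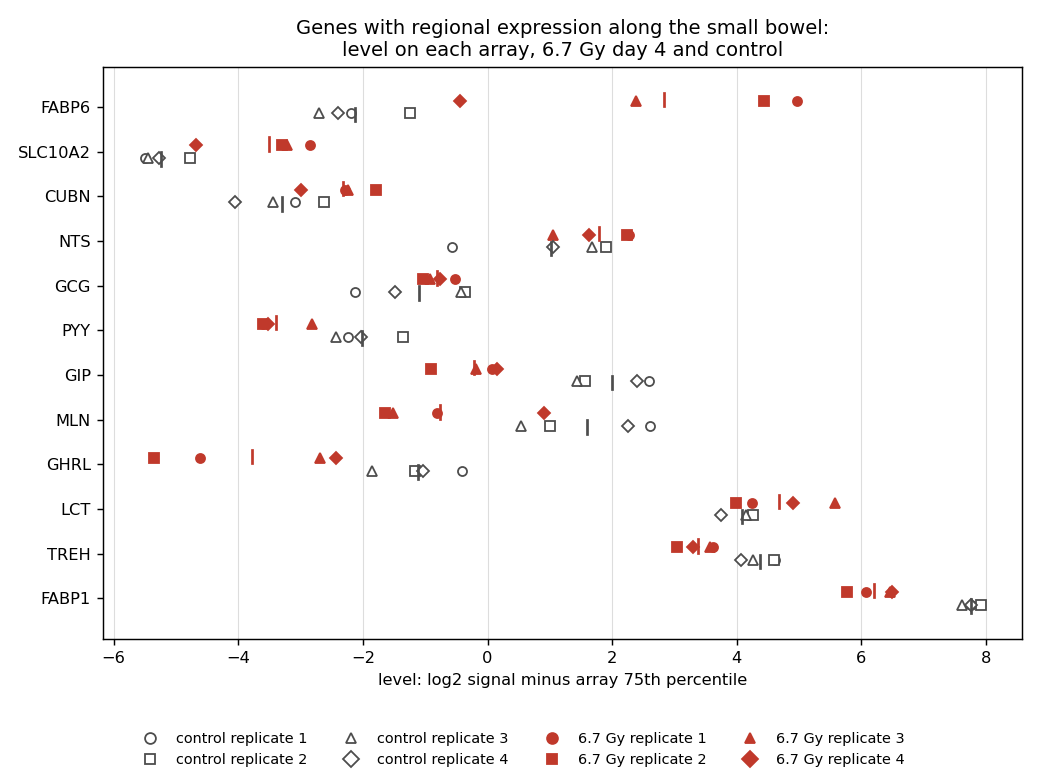
Level on each array (log2 signal relative to that array's 75th percentile, x axis) of 12 genes with regional expression along the small bowel, with controls open grey, irradiated animals filled red, 1 symbol shape per replicate number and bars at group means. GIP and FABP1 separate the groups on all arrays, whereas irradiated replicate 4 lies near the controls for FABP6, at -0.44.

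Of 25 DNA replication genes 2 were up-regulated (TYMS and RPA1), against 1.41% of all genes. In this list 22 genes had changes above 0 and the median change was 0.44, while over all genes 45.6% had changes above 0. The list's median difference was -0.05 within slide 1 and 0.87 within slide 2. TYMS, thymidylate synthase, lay at 0.36, 0.43, 0.59 and -0.04 in controls and at 2.56, 2.26, 1.38 and 2.44 after irradiation. All irradiated arrays were higher, array 3 the least, with a change of 1.83 ± 0.27 (limma adjusted p = 0.0143), and all 4 TYMS probes were called, with changes of 1.80 to 2.09. RPA1, the large subunit of the single-strand DNA binding complex, changed by 1.03 ± 0.22 (limma adjusted p = 0.0408), lost its call whichever array was left out (changes of 0.83 to 1.14) and was 0.90 at the common floor. PCNA, the polymerase clamp that p53 also induces, changed by 0.68 (limma adjusted p = 0.0423) and FEN1, a flap endonuclease, by 0.98 (limma adjusted p = 0.0233), both under the 2-fold limit.

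Of 28 mitosis genes none was called in limma (7 at an unadjusted p under 0.05, and 0 by the methods' t-test), near the 2.27% called over all genes, 24 had changes above 0 and the median change was 0.40. The animals disagreed: the list's mean level was -0.73 and -0.64 on irradiated arrays 1 and 4 and -1.46 and -1.53 on arrays 2 and 3, against -1.30, -1.34, -1.45 and -1.74 in controls. Within slide 1 the median difference was -0.20 and within slide 2 it was 0.78, so the direction differed between the slides. CDK1, the kinase that drives entry into mitosis, had the same split, with -0.88, -1.75, -1.90 and -0.69 after irradiation against -1.73, -1.84, -1.83 and -2.22.

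Of 12 crypt base and stem cell genes 1 was up-regulated, EPHB3, against 1.41% of all genes, and 11 had changes above 0 with a median of 0.63. EPHB3, an ephrin receptor that sorts cells along the crypt, lay at -3.41, -4.00, -3.25 and -2.75 in controls and at -1.16, -1.70, -1.96 and -1.06 after irradiation. The groups did not overlap, and the change was 1.88 ± 0.30 (limma adjusted p = 0.0167), 1.45 at the common floor. LGR5, the stem cell receptor for R-spondins, changed by 0.25 (limma adjusted p = 0.41). OLFM4, a crypt base glycoprotein, lay at -1.80, -3.33, -2.69 and -3.19 against -0.61, -6.25, 1.40 and 1.10, with irradiated array 2 the lowest and array 3 the highest of all 8. The value of -6.25 is below -4.72, the lowest level that irradiated array 2 could measure. The OLFM4 change of 1.66 depends on that value and was not called (limma adjusted p = 0.557).

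Single genes of secreted defence proteins were called, in both directions. LCN15, a lipocalin, lay at -3.42, -3.86, -5.55 and -3.28 in controls and at 0.61, -1.29, 0.14 and 0.72 after irradiation. Irradiated array 2 was the lowest of its group and still well above the controls. The change was 4.07 ± 0.58, or 16.8-fold (limma adjusted p = 0.0136). Control arrays measured it above background in 3 of 4 cases, and the change was 3.03 at the common floor and 2.72 with normexp, called in both. It was the 1 called gene of 13 in the list of Paneth cells and antimicrobial proteins, against 1.41% of all genes up-regulated. DEFA6, a defensin of Paneth cells, lay between 6.98 and 8.48 in controls and between 6.81 and 8.49 after irradiation, a change of 0.08 (limma adjusted p = 0.931). LCN2, a lipocalin that withholds iron from bacteria, depended on the probe. The brighter one changed by 0.11 (limma adjusted p = 0.788). The other lay at -2.61, -4.71, -3.14 and -2.58 against -1.32, -0.06, 1.59 and 0.85, a change of 3.53 ± 0.67 (limma adjusted p = 0.0284) that was called only without control 4 or irradiated array 1. LYPD8, a secreted protein that binds flagellated bacteria, lay at 1.02, 2.01, 1.10 and 0.81 against -1.73, -1.61, -1.72 and 0.46. Irradiated array 4 stood apart from its group, and the change of -2.39 ± 0.50 (limma adjusted p = 0.0387) was called only without that array, with changes of -2.92 to -2.13.

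A pair of protease-related genes rose from low levels. KLK3, a kallikrein known as prostate-specific antigen, lay at -3.97, -3.60, -3.85 and -5.31 in controls and at -0.71, 1.20, -0.08 and 3.52 after irradiation, with irradiated array 4 the highest. Control and irradiated array of KLK3 lay at -3.97 and -0.08 within slide 1 and at -3.60 and 3.52 within slide 2. Its change was 5.16 ± 0.84, or 35.8-fold (limma adjusted p = 0.0177), and the call was lost without irradiated array 2 (changes of 4.32 to 5.73 over the arrays left out) and at the common floor, where the change was 3.96. The second KLK3 probe was above background on no control and on 3 irradiated arrays, and it was called higher (limma adjusted p = 0.0231), with the call lost without irradiated array 2 or any of controls 1 to 3 and at the common floor, where the change was 1.20. Kallikreins are a family of close copies, and which of them the probes read was not tested. CST6, cystatin E/M, an inhibitor of cysteine proteases, lay at -0.31, -2.59, -2.82 and -2.46 against 1.83, 2.27, 1.28 and 1.01. Control 1 stood apart from the other controls yet below every irradiated array, and the change was 3.64 ± 0.54 (limma adjusted p = 0.0147), 1.59 within slide 1 and 3.60 within slide 2. Of the 9 kallikreins and inhibitors tested these were the called genes, against 1.41% of all genes up-regulated.

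Of 27 tested chemokines, 5 were up-regulated (CCL19, CCL2, CCL20, CCL21 and CXCL10), none was down-regulated, the median change was 0.94, and 1.41% of all genes were up-regulated. The count was 1 at the common floor, by the methods' t-test, without a filter on dim probes, or without control 1 or irradiated array 4, and 0 with slide (fixed), position or replicate number as a block. At the floor CCL19 kept its call. CCL19, which guides T cells and dendritic cells to lymphoid tissue through the receptor CCR7, lay at -2.21, -2.79, -3.15 and -2.56 in controls and at -0.29, 1.52, 2.15 and 0.80 after irradiation. Irradiated array 1 was the lowest of its group and above all controls. The change was 3.72 ± 0.47, or 13.2-fold (limma adjusted p = 0.00862). CCL21, the other ligand of that receptor, lay at 0.13, -0.13, 0.38 and 0.61 against 1.43, 1.99, 0.99 and 1.32, a change of 1.19 ± 0.24 (limma adjusted p = 0.0351) that was called only without control 4 or irradiated array 3 (changes of 1.00 to 1.33).

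CCL2, which attracts monocytes, lay at -2.79, -3.28, -3.13 and -2.87 in controls and at -1.07, -1.60, 0.93 and -0.45 after irradiation. The change was 2.47 ± 0.47 (limma adjusted p = 0.0289), irradiated array 3 stood highest, and the call was lost without irradiated array 4 or any 1 control, with changes of 1.98 to 2.82. CCL20, an epithelial chemokine for lymphocytes and dendritic cells, lay at -2.96, -3.27, -1.50 and -2.77 against -1.46, 0.78, 0.74 and 0.35, so irradiated array 1 barely cleared control 3. Its change was 2.73 ± 0.55 (limma adjusted p = 0.034), called only without control 3 or irradiated array 1 (changes of 2.50 to 3.25). CXCL10, an interferon-induced chemokine for T cells, lay at -2.45, -1.85, -2.46 and -3.06 against -1.34, -1.12, -0.26 and -0.52. The groups were close but did not overlap, with a change of 1.64 ± 0.31 (limma adjusted p = 0.0279) that was called only without control 2 or irradiated array 1 (changes of 1.44 to 1.84). The 2 probes of CXCL11, a related chemokine, went in different directions, -1.99 for the brighter (limma adjusted p = 0.0751) and higher for the other (limma adjusted p = 0.0415). Neither was well detected. The brighter was above background on only 3 controls and 2 irradiated arrays. The other was above background on no control and on 2 irradiated arrays, and at the common floor its change was 0.00 and the call was lost.

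VCAM1, the adhesion molecule that endothelium displays under inflammation, was the 1 up-regulated gene of 15 in the TNF and NF-kB list, against 1.41% of all genes. It lay at -0.46, -0.58, -0.36 and -0.18 in controls and at 0.51, 1.08, 1.49 and 0.74 after irradiation. Controls were tightly grouped and all irradiated arrays stood higher, with a change of 1.35 ± 0.22 (limma adjusted p = 0.0181) that was lost without irradiated array 2 or any of controls 1 to 3 (changes of 1.17 to 1.50). TNF itself lay at -2.43, -2.47, -2.10 and -2.40 against -2.08, -1.42, -0.37 and -1.51, a change of 1.00 (limma adjusted p = 0.118), and IL6 changed by -0.26. IL8, the neutrophil chemokine CXCL8, varied from -5.19 to -0.23 among irradiated animals, and its change of 2.33 was not called (limma adjusted p = 0.182).

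None of the 22 interferon response genes was called in limma (5 at an unadjusted p under 0.05), near the 2.27% called over all genes, though 17 had changes above 0 and the median was 0.64. Their mean level was -0.98, -0.55, -0.31 and -0.06 on irradiated arrays 1 to 4 and -0.92, -0.70, -0.90 and -1.38 in controls. Irradiated array 1 was thus within the control range and arrays 2 to 4 above it. ISG15, a ubiquitin-like interferon product, changed by -0.02 (limma adjusted p = 0.984), and IFI6, another interferon target, by 1.68 (limma adjusted p = 0.276). Outside the list, and chosen after their values were seen, some other interferon-induced genes were up-regulated. IFITM1, which blocks virus entry, changed by 1.10 and 1.07 on its 2 probes (limma adjusted p = 0.0312 and 0.0248), but the calls held in only 2 and 1 of the 8 fits with 1 array left out. APOBEC3H, a cytidine deaminase that restricts retroviruses, changed by 1.57 and 2.04 (limma adjusted p = 0.00862 and 0.00177), and both calls held with each array left out. For IFITM3, a relative of IFITM1, 2 of 4 probes were called, with changes of 1.28 and 1.57 (limma adjusted p = 0.0489 and 0.0272), and both calls were lost at the common floor. Its brightest probe changed by 1.04 and was not called (limma adjusted p = 0.108).

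Over all genes 2.27% were called, so short marker lists could hold few calls or none. None of 4 B cell genes, 17 T and NK cell genes, 9 macrophage and dendritic cell genes, 5 neutrophil genes or 8 mast cell and eosinophil genes passed in limma. At an unadjusted p under 0.05 the lists held 2, 3, 4, 1 and 1 genes in the same order. The mean level of the T and NK cell list lay between 0.09 and 0.47 in controls and between 0.46 and 0.96 after irradiation, and that of the macrophage and dendritic cell list between 1.16 and 1.50 and between 1.36 and 2.15. Their part in the chemokine results was not tested. In the plasma cell list 1 of 9 genes was down-regulated (against 0.867% of all genes), MZB1, a chaperone of antibody secretion, at 1.97, 1.14, 1.46 and 2.67 against -0.64, 0.07, 0.48 and 0.47. Its change was -1.71 ± 0.37 (limma adjusted p = 0.0412), lost whichever array was left out (changes of -1.94 to -1.42).

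Genes of the matrix and of the plasma protease cascades were up-regulated where they were called. Of 32 genes of extracellular matrix and fibroblasts 7 were up-regulated (MMP12, POSTN, VCAN, COL6A3, TIMP1, MMP2 and FN1), 30 had changes above 0, and the median was 0.79, against 1.41% of all genes up-regulated. The count was 4 at the common floor and 2 by the methods' t-test. MMP12, the elastase of macrophages, lay at -4.12, -5.34, -5.16 and -4.79 in controls and at -0.64, -1.26, 0.41 and -1.25 after irradiation. A wide gap separated the groups, and the change was 4.17 ± 0.41, or 18.0-fold (limma adjusted p = 0.0033), with 2.30 at the common floor. MMP2, a gelatinase of stromal cells, lay at 1.87, 1.68, 1.75 and 1.93 against 2.99, 3.49, 3.22 and 2.74, a change of 1.31 ± 0.18 (limma adjusted p = 0.0109).

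VCAN, the matrix proteoglycan versican, lay at -0.28, -0.60, -0.40 and -0.64 in controls and at 0.44, 1.13, 1.41 and 0.59 after irradiation. The change was 1.37 ± 0.23 (limma adjusted p = 0.0191), and the call was lost without irradiated array 2, control 2 or control 3 (changes of 1.20 to 1.52). Calls of the other 4 genes were lost in more of these fits: FN1, fibronectin, lost its call whichever array was left out (changes of 0.88 to 1.19), POSTN, periostin, kept it only without control 4 (1.36 to 1.89), TIMP1, a metalloprotease inhibitor, only without irradiated array 1 (1.15 to 1.53), and COL6A3, a type VI collagen chain, was called without controls 3 or 4 or irradiated array 1 (1.20 to 1.49). COL1A1, the main fibrillar collagen chain, changed by 0.21 and was not called.

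Of 24 genes of complement, coagulation and fibrinolysis 4 were up-regulated and none was down-regulated, with a median of 0.65, against 1.41% of all genes up-regulated. By the methods' t-test 2 were called. C7, which forms part of the complement pore, lay at 2.96, 2.72, 3.21 and 3.13 in controls and at 4.55, 4.17, 5.09 and 4.94 after irradiation. Controls and irradiated animals were well separated, with a change of 1.69 ± 0.22 (limma adjusted p = 0.00971), 2.13 within slide 1 and 2.23 within slide 2. PROS1, the anticoagulant protein S, lay at -2.42, -2.47, -2.67 and -2.36 against -1.43, -1.23, -1.26 and -1.57, a change of 1.11 ± 0.14 (limma adjusted p = 0.00862). Both calls held with each array left out.

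A2M, a broad protease inhibitor, lay at 2.70, 2.47, 2.29 and 2.46 in controls and at 3.25, 4.30, 4.42 and 4.23 after irradiation. Irradiated array 1 stood apart from the other irradiated arrays, nearer the controls. The change was 1.57 ± 0.26 (limma adjusted p = 0.0186), and the call was lost without irradiated arrays 2, 3 or 4 or controls 2 or 3 (changes of 1.45 to 1.84). PLAU, the plasminogen activator urokinase, changed by 1.47 ± 0.32 (limma adjusted p = 0.0453) and was called only without irradiated array 1 (1.20 to 1.78). C3, the central complement component, lay at 2.15, 0.77, 1.19 and 2.96 against 2.69, 4.38, 3.63 and 3.73 and was not called (change 1.84, limma adjusted p = 0.0818).

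For other cells of the wall, 0 of 12 smooth muscle genes, 0 of 12 endothelial genes and 0 of 11 neuron and glia genes passed in limma, which is near the 2.27% called over all genes. At an unadjusted p under 0.05 in limma the counts were 0, 3 and 5. The median change was 0.28, 0.05 and 0.63. The mean level of the smooth muscle list was 2.67 to 3.27 in controls and 2.95 to 3.23 after irradiation, and that of the endothelial list was -2.03 to -1.79 and -2.01 to -1.62, so both lists overlapped between the groups. The neuron and glia list did not overlap, with mean levels of -0.87 to -0.67 in controls and -0.41 to -0.25 after irradiation. The part of these cells in the matrix results was not tested. The 8 goblet cell genes had none called either (3 at an unadjusted p under 0.05), the methods' t-test called no gene in any of these lists, and MUC2, the gel-forming mucin, changed by 0.53 (limma adjusted p = 0.466).

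HBB, the beta chain of adult hemoglobin, gave the second largest fall. Its brighter probe lay at 1.54, 2.14, 3.22 and 3.78 in controls and at -3.66, -3.86, -5.52 and -3.95 after irradiation. No irradiated array came near a control, and 3 of the 4 measured the probe above background. The change was -6.92 ± 0.55, or 121-fold lower (limma adjusted p = 0.00142), and -5.66 at the common floor, with -7.06 within slide 1 and -6.09 within slide 2, and a second HBB probe was at least 36.4-fold lower (limma adjusted p = 0.0033). One HBA2 probe, for the alpha chain, fell from 1.09, 1.36, 2.42 and 3.13 to -2.23, -1.47, -2.15 and -1.92, a change of -3.94 ± 0.43 (limma adjusted p = 0.00481). The brighter HBA2 probe lay at 7.99, 7.17, 7.44 and 7.70 against 6.91, 7.44, 7.38 and 6.79 and was not called (change -0.45, limma adjusted p = 0.294). The HBA2 probes therefore differed from each other, and AHSP, the chaperone of alpha hemoglobin in red cell precursors, changed by -0.05 (limma adjusted p = 0.859).

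The remaining genes with the largest changes belonged to no list. SERPINA2, a relative of the protease inhibitor alpha-1 antitrypsin, lay at 0.31, 0.85, 1.78 and 2.24 in controls and at -1.86, -1.59, -1.87 and -1.50 after irradiation, a change of -3.00 ± 0.38 (limma adjusted p = 0.00862). Its irradiated levels were nearly equal and the controls varied. TMEM65, a protein of the inner mitochondrial membrane, lay at 1.26, 0.14, 0.69 and 0.98 against -1.20, -1.43, -0.88 and -0.86, a change of -1.86 ± 0.25 (limma adjusted p = 0.0104). TMEM211, a membrane protein gene, was above background on no control and on 3 irradiated arrays and was called higher (limma adjusted p = 0.0143), but at the common floor its change was 0.10 and the call was lost.

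Over the 54 called probes named by rule, the direction within slide 1 and within slide 2 was that of the whole comparison for all 54. These arrays are part of the comparison that made the calls. Where groups do not overlap, as in 558 of the 559 called probes, the direction is fixed, so it cannot test an effect of slide or scan day. The difference was at least 2-fold for 53 within slide 1 and for 47 within slide 2. Of these calls 32 held with each array left out, 22 were lost without at least 1 array, and 2 (RPA1 and MZB1) were lost whichever array was left out. At the common floor 18 of the 54 calls were lost: besides those given above, these were FABP6, HMOX1, VIL1, CXCL10, CCL2, SULT2A1, LCN2, PYY, SLC6A20, MZB1 and LYPD8. Other members of the lists that lost their calls there were TNFRSF10A, CCL20, CCL21, PLAU, FN1, POSTN and TIMP1.

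No difference between the doses was called on day 4, and several genes lay nearer to control on day 7. The 7.4-Gy TBI animals, the 6.7-Gy animals on day 7 and those on day 4 are all set against the same 4 controls, so their changes are given side by side and the groups were compared directly. Between 7.4 Gy and 6.7 Gy on day 4, 0 of 28171 probes were called in limma (the smallest adjusted p was 1 when rounded, and 78 probes passed an unadjusted p of 0.05 with a 2-fold difference), and the methods' t-test called 0 as well.

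GDF15 was 4.00 above control at 6.7 Gy and 3.86 at 7.4 Gy, and the direct difference of -0.15 had a 95% confidence interval of -0.83 to 0.53. DDB2 was 2.71 and 2.76 above control, with a difference of 0.06 (-0.34 to 0.46). These intervals leave out a 2-fold difference between the doses for both genes. The CYP1A1 change was -7.91 at 6.7 Gy and -4.86 at 7.4 Gy, and the difference of 3.05 had an interval of -0.22 to 6.33. The 4 animals of the higher dose varied widely for this gene (SD 4.62 around a mean level of 0.59), so the interval is wide and also holds large differences in the direction of a higher level at 7.4 Gy. FABP6 was similarly variable at both doses, with SDs of 2.45 and 2.67 and a difference of -0.36 (-3.03 to 2.31). MT1X was 3.07 and 3.43 above control, with a difference of 0.36 (-0.73 to 1.44).

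On day 7 after the same dose, some of the genes called on day 4 differed from day 4, and others missed the threshold. Between day 7 and day 4, 436 probes (1.55%) were called in the model of all 24 arrays. GDF15 was 1.83 above control on day 7, with a difference between the days of -2.18 (limma adjusted p = 0.00216). DDB2 was 1.32 above control, a difference of -1.39 (limma adjusted p = 0.00148), and EDA2R 2.24 above control, a difference of -1.44 (limma adjusted p = 0.0104). All 3 thus stood between control and day 4. PLK2 differed by -1.37 between the days (limma adjusted p = 0.0118). BAX was 0.74 above control on day 7, and its difference of -0.48 missed the threshold (limma adjusted p = 0.132).

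Genes that were down-regulated on day 4 were of both kinds. The S100G change from control was -0.37 on day 7 against -3.33 on day 4, a difference of 2.96 (limma adjusted p = 0.00832), and CYP2D6 differed by 3.45 (limma adjusted p = 0.0281). ADA, however, had a change from control of -3.35 on day 7 and of -3.59 on day 4, a difference of 0.24 with an interval of -1.44 to 1.92. The GIP change was -2.05 on day 7 and -2.21 on day 4, a difference of 0.16 (-0.90 to 1.22). For these genes no change between the days was detectable. CYP1A1 had a change of -2.57 on day 7, and its difference of 5.34 missed the threshold (limma adjusted p = 0.0573).

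Among genes up-regulated on day 4, the chemokine CCL19 was 1.02 above control on day 7 against 3.72 on day 4, a difference of -2.71 (limma adjusted p = 0.0314). VCAM1 differed by -1.04 (limma adjusted p = 0.0069), VCAN by -1.12 (limma adjusted p = 0.0126) and A2M by -1.32 (limma adjusted p = 0.0246). LCN15 was 2.05 above control on day 7, a difference of -2.02 (limma adjusted p = 0.0287). These 5 genes were lower on day 7 than on day 4. CXCL10 was 1.64 above control on day 4 and 1.88 on day 7, a difference of 0.24 (limma adjusted p = 0.9). MMP12, MMP2 and C7 differed by -2.06, -0.86 and -1.14 and missed the threshold (limma adjusted p = 0.169, 0.0828 and 0.0892). Metallothioneins gave no such difference: MT1X was 2.79 above control on day 7, differing by -0.28 (-1.37 to 0.80), and MT4 was 2.62 above, differing by -0.25 (-1.38 to 0.89).

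**Figure D5:**
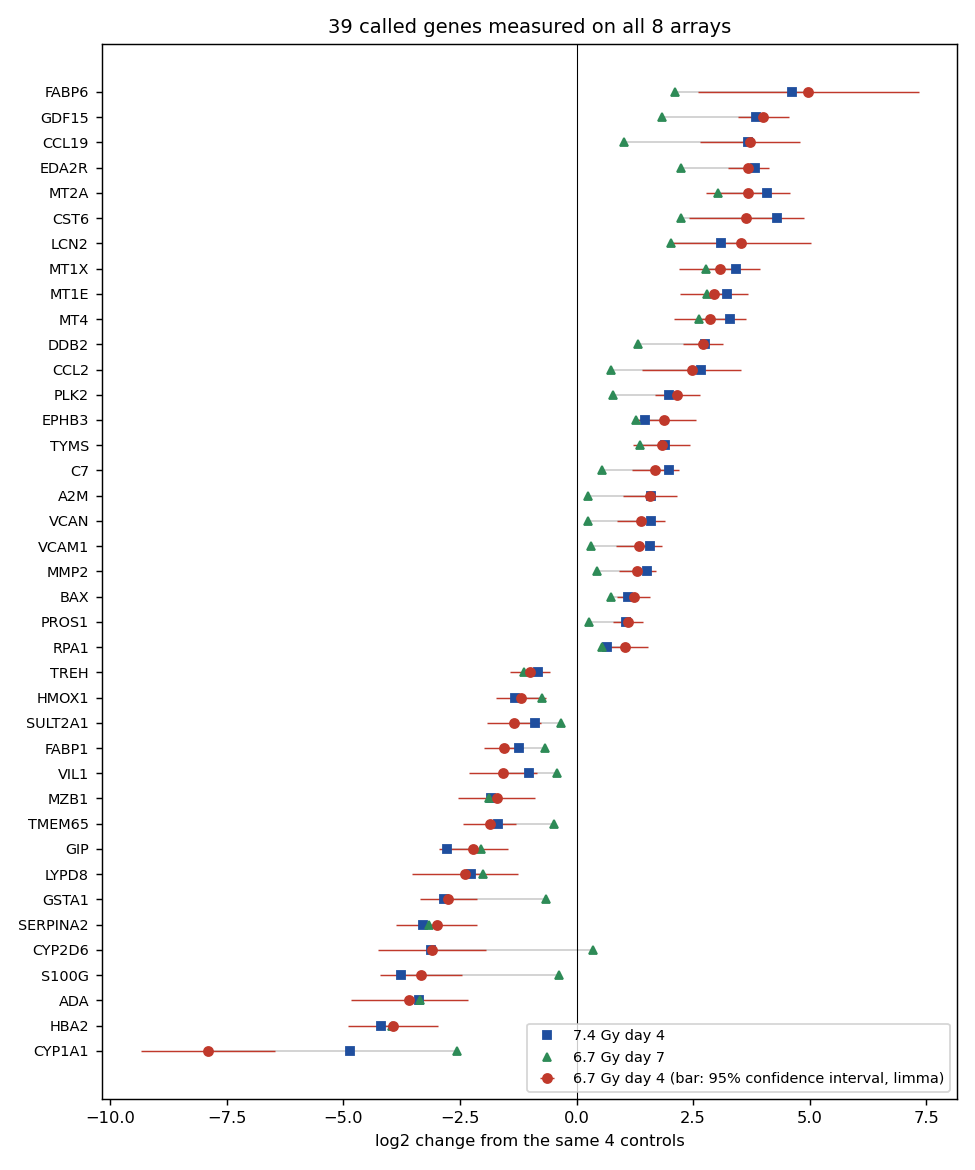
Log2 change from the same 4 controls (x axis) for 39 called genes measured on all 8 arrays (y axis), with red circles for 6.7 Gy on day 4 (bars are 95% confidence intervals from limma), blue squares for 7.4 Gy on day 4 and green triangles for 6.7 Gy on day 7. The squares lie near the circles for most genes, with CYP1A1 at -4.86 against -7.91, and the triangles of GDF15 (1.83) and S100G (-0.37) lie nearer to 0 than the circles.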

How the data were processed

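Gene expression was measured on 1-color Agilent rhesus arrays. Per the file headers, the authors extracted spot intensity with Agilent Feature Extraction 11.0.1.1, with background subtracted. The deposited normalized table holds log2 values made in GeneSpring, and it equals log2 signals scaled to each array's 75th percentile and centred on each row's median. Here control spots and non-uniform spots were dropped and spots of a probe averaged, giving 43603 probes, and levels were log2 intensity after that same scaling. This percentile was a signal of 831 to 1069 on the 8 arrays, and no spot was saturated. The number of arrays limits the precision.

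The 28171 probes measured above background on all arrays of 1 or more of the 7 groups were tested with limma 3.58.1 in R 4.3.3 (lmFit and eBayes, two-sided). The 8 arrays formed the model for the comparison with control, and all 24 arrays the model for dose and day. P-values were adjusted by Benjamini-Hochberg over all tested probes. Symbols came from the deposited table for 23674 probes and from RefSeq accessions for 121, and 19808 probes had none. A gene was represented by its brightest probe over the 24 arrays. For a probe above background on no array of a group, a lower bound is given, set by the lowest signal measured above background on each array.

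Named genes were, per list, up to 3 called members with the smallest p (else the member with the smallest p), then the 10 largest rises and 10 largest falls among called probes measured on all 8 arrays without overlap, and up to 6 called probes above background in only 1 group. Other list members named were chosen after their values were seen. Members and lists were chosen with earlier results of these data known. The replicate numbers did not pair the animals: samples of the same number had correlated deviations between -0.10 and 0.03. The highest correlations were those of the same-slide pairs, 0.22 for irradiated array 3 with control 1 and 0.16 for irradiated array 4 with control 2. With slide as a random block the estimated correlation within slides was 0.31. Alternatives covered background correction, scaling, filters, probe choice, blocks, the methods' t-test and single arrays left out. The authors' own fold changes and p-values were not used. Scripts were tested on simulated data.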

Additional observations from a re-analysis of the deposited data

Results flagged for a closer look

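Each of the 66 probes named by rule was checked in both groups of 4 for an array far from the other 3 (Dixon's test at 95%), which gave 13 of 132 groups. Chance flags about 1 group in 20. In controls, control 3 was the highest for MT1X (3.67), MT1E (3.86) and HDC (-1.95), control 1 the highest for CST6 (-0.31), and control 4 the highest for the second KLK3 probe (-5.33). Control 4 was the lowest for PLK2 (-2.42) and S100A9 (-2.41), and control 2 the lowest for HMOX1 (3.95).

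In irradiated animals, array 3 was the lowest for TMEM211 (-3.92) and for HBB (-5.52) and the highest for PYY (-2.81). Array 1 was the lowest for A2M (3.25), and array 4 the highest for LYPD8 (0.46). The MT1X and MT1E probes read closely related genes, and the TMEM211, HBB and KLK3 values lie at or below the detection limit of the less sensitive arrays.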

How the results depend on the processing

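Over 28 alternatives no named probe reversed direction. The side of the threshold was kept in 1403 checks and lost in 404, most often with slide as a fixed block (53 of the 54 called probes lost), and a call was gained in 13. The count of 559 called probes (353 up-regulated, 206 down-regulated) became 101 (70 and 31) without a filter on dim probes, 302 (184 and 118) at the common floor, 155 (99 and 56) by the methods' t-test, 5 (2 and 3) when slide was a fixed block, 276 (186 and 90) when scan day was the block, 85 (47 and 38) when array position was the block, 303 (186 and 117) with 1 probe per symbol, 298 (185 and 113) with the mean of a symbol's probes, and 204 (140 and 64) on the first scan day alone, an alternative chosen after seeing the data. With normexp 229 were up-regulated, and with slide as a random block 320 were down-regulated. With 1 array left out, the count ran from 235 to 614 (151 to 411 up-regulated, 84 to 203 down-regulated).

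Blocking on the replicate number gave 93 (58 and 35), although the numbers did not pair the animals.

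Between doses 1 probe was called with position as a block, and 0 with any array left out. Between days the 436 calls became 276 with normexp, 248 without the filter, 217 at the floor, 149 on the arrays compared alone, 24 by the methods' t-test, 928 and 658 with slide as a fixed and a random block, 1 with position as a block, 232 and 231 with 1 probe or the mean per symbol, and 169 to 740 with 1 array left out. Higher on day 7 were 224 of 436, but 158 of 454 with the percentile taken over detected probes. The median of the bile acid and of the neutrophil list changed sign without the 2 arrays of fewest detected probes, and that of the tight junction list under quantile normalization (-0.09 to 0.03). The causes were not tested. Signal over background limits low probes: below -2.98 irradiated array 1 measured nothing.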

Other observations

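The genes in this part were chosen after their values were seen, so their values are a description. RBP2, the retinol carrier of enterocytes, lay at 7.54, 7.84, 7.56 and 7.56 in controls and at 6.15, 6.17, 6.28 and 5.90 after irradiation, a change of -1.50 ± 0.14 (limma adjusted p = 0.00296). CAT, catalase, lay at 3.59, 3.66, 3.53 and 3.62 against 2.73, 2.02, 2.50 and 2.53 (change -1.15, limma adjusted p = 0.0143). IDH1, a source of cytosolic NADPH, changed by -1.37 (limma adjusted p = 0.0113). All 4 probes of CIDEC, a lipid droplet protein, were called, with changes of -1.42 to -1.35, each was lost without at least 4 of the arrays, and 3 of them, the brightest included, were lost at the common floor. FUT2, which makes the secretor glycans of the mucosa, lay at -1.33, -1.71, -1.55 and -1.50 against -3.31, -2.90, -3.34 and -3.69 (change -1.79, limma adjusted p = 0.00404).

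WIF1, a secreted Wnt inhibitor, lay at -1.00, -1.11, -0.87 and -1.06 in controls and at 1.02, 1.26, 0.65 and 1.39 after irradiation, a change of 2.09 ± 0.18 (limma adjusted p = 0.00183). Its second probe, above background on 3 arrays of each group, was called with a change of 2.35, but at the common floor the change was 0.35 and the call was lost. BMP7 lay at -4.03, -3.29, -3.85 and -3.99 against -1.10, -1.33, -1.59 and -1.07 (change 2.52, limma adjusted p = 0.00142), with 1.71 at the common floor. GREM1, a BMP antagonist of stromal cells, changed by 1.57 on its brightest probe (limma adjusted p = 0.0335), which was called only without control 4 or irradiated array 1, by 1.57 on another (limma adjusted p = 0.0355), and by -0.66 on the third, which was not called (limma adjusted p = 0.331). Both of its calls were lost at the common floor. GPX2, the glutathione peroxidase of gut epithelium, lay at 2.23, 1.51, 1.56 and 1.77 against 4.12, 4.20, 4.71 and 4.58 (change 2.64, limma adjusted p = 0.00142), in the direction opposite to CAT.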
